A study of Drosophila melanogaster with 72 samples.

Results

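Fly heads with mutant huntingtin in glia were compared with control heads at 5 days of age. These were 6 of the 72 libraries of a series on Drosophila melanogaster that expressed huntingtin in neurons or in glia. Huntingtin is the protein whose polyglutamine tract is expanded in Huntington's disease. The mHTT flies had the genotype repo-GAL4/+; UAS-HTTNT231Q128/+, in which the glial driver repo-GAL4 directs an N-terminal fragment of mutant huntingtin (mHTT), and the controls carried repo-GAL4/+ without the fragment. Both groups thus carried 1 copy of the driver, both were kept at 28 °C, and each had 3 libraries chosen by the sample labels. The control genotype names no insertion in place of the fragment. Changes due to mHTT therefore cannot be told apart from those due to the insertion or to strain background, for any gene below. Each library was made from poly(A) RNA of 50 pooled whole heads, so RNA of neurons, photoreceptors, fat body, muscle and cuticle was measured together with that of glia. Libraries of the same genotypes at days 7 and 8 (12 libraries) entered the same model and served for comparison. Transcripts of the huntingtin fragment itself were not analysed here.

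Glia of the fly brain comprise cells that wrap neuronal cell bodies (cortex glia), cells that enter or enclose the neuropil (astrocyte-like and ensheathing glia), and perineurial and subperineurial cells that form the blood-brain barrier. They clear glutamate and GABA, recycle the photoreceptor transmitter histamine, supply metabolites to neurons and engulf debris. Expanded huntingtin fragments form aggregates, and chaperones, the proteasome and autophagy are the routes by which cells refold or remove such proteins. In whole heads, fewer cells of a type and less RNA per cell cannot be told apart.

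Values are the deposited signal of each gene, scaled by the authors so that the upper quartile (75th percentile) of every library was 1000. They carry no correction for transcript length, so levels are compared between libraries and not between genes. The 6 libraries were sequenced to an estimated 36.4 M to 44.1 M reads each (M, 1e6), and their summed signal ran from 18.3 M to 19 M. Between 1184 and 1242 genes were listed at 0 in the mHTT libraries and between 1444 and 1640 in the controls. No library was a copy of another, and the lowest Pearson correlation within a group was 0.982 for mHTT and 0.992 for controls. mHTT library 1 had the largest deviation from its group, with a root mean square residual of 0.304 against 0.242 and 0.242 for libraries 2 and 3, while controls had 0.2, 0.182 and 0.183. Control library 2 was the only day 5 library with another prefix in its label. The labels do not say that the libraries came from separate crosses or cultures, so p-values measure the spread between these samples, which may be technical.

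Of 10358 genes tested, 1398 (13.5%) were called at day 5, which means a Benjamini-Hochberg adjusted p under 0.05 in limma. Of these, 733 (7.08% of genes tested) were higher with mHTT and 665 (6.42%) were lower. Counts given below for gene lists are to be read against these shares. The median change of all genes tested was 0.06 on the log2(value + 1) scale, on which all changes below are given. An absolute change of at least 1 was found for 400 called genes, 178 higher and 222 lower. The 3 mHTT and the 3 control values did not overlap for 1388 of the called genes (99.3%), against 44.3% of all genes tested. Within the most frequent label prefix, which leaves out control library 2 and 2 libraries of later ages, 928 genes were called (472 higher, 456 lower). Without control library 2 in the full model the count was 902, and without mHTT library 1 of day 7 it was 2381. Except where a loss is stated, the call of each gene named below held in each of the 29 alternative settings in which the gene was tested.

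The driver gene repo and most of the listed genes of neuropil and cortex glia were lower with mHTT. repo (FBgn0011701), the transcription factor whose regulatory region drives the transgene, had values of 676, 574 and 627 in the mHTT libraries and 1132, 942 and 954 in controls. The groups did not overlap, and repo fell by 0.69 (SE 0.13, adjusted p = 0.0015). The neuronal gene elav had values of 1798, 1878 and 1801 in the mHTT libraries and 1815, 1884 and 1735 in controls, which overlapped, and a change of 0.01 (adjusted p = 0.978). repo and elav each overlap a gene on the other strand, and whether strand was used in counting is not given in the sources used here. Of 8 tested genes of pan-glial identity, 3 fell (repo, wrapper and nrv2) and none rose, with a median of -0.27, and 1 gene of this list was higher at an unadjusted p under 0.05. That gene, loco, a regulator of G-protein signalling, had values of 919, 875 and 957 in the mHTT libraries and 729, 783 and 782 in controls, without overlap, and a change of 0.26 (adjusted p = 0.0843), and was called without mHTT library 1 or 2 of day 7 and from the 6 day 5 libraries alone. It overlaps antisense RNAs. drpr, pnt, gcm and gcm2 were not called, with changes from -0.42 to -0.02.

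A list of 22 tested genes combined markers of astrocyte-like, cortex and ensheathing glia with genes of the histamine cycle, in which photoreceptors take part. Of these 17 fell and 2 rose, with a median change of -0.68, and lower calls made up 6.42% of all genes. The list was chosen with earlier results of these data known and shares wrapper with the pan-glial list, so this count is not an independent test. Both genes that rose, CarT and t, act in photoreceptors and not in these glia. wrapper (FBgn0025878), an immunoglobulin-family surface protein of glia that enwrap neurons, was at 91.8, 68.2 and 81.3 in the mHTT libraries and 1622, 1434 and 1544 in controls. All control values were far above all mHTT values, and wrapper fell by 4.24 (SE 0.15, adjusted p = 1.43e-11). CG1552 (FBgn0030258) fell by 5.21 (SE 0.17, adjusted p = 1.12e-11), from 2649, 2571 and 2454 in controls to 60.5, 68.2 and 77.2. rumpel (CG9657, FBgn0029950), a sodium-coupled solute carrier of ensheathing glia, was at 63.6, 53.6 and 66.7 in the mHTT libraries and 721, 754 and 783 in controls. It fell by 3.60 (SE 0.21, adjusted p = 7.87e-09), again without overlap. For these 3 genes, the steepest falls of the list, mHTT libraries ran from 53.6 to 91.8 and controls from 721 to 2649.

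Transporters and enzymes that handle transmitters moved by different amounts. Gat (CG1732, FBgn0039915), the GABA transporter of astrocyte-like glia, was at 570.1, 550.5 and 577 in the mHTT libraries and 3193, 3219.8 and 3266 in controls. The values within each group lay close together, and Gat fell by 2.51 (SE 0.13, adjusted p = 1.49e-09). The glutamate transporter Eaat1 fell by 0.50 (SE 0.13, adjusted p = 0.0146), from 7484, 7999 and 7876 to 5184, 5768 and 5626, and this call was lost without mHTT library 1 or control library 2 or 3 and with all 72 libraries in the fit. Glutamine synthetase 2 (Gs2) fell by 0.52 (SE 0.12, adjusted p = 0.00616). Eaat2, a second transporter of the same family, overlapped between groups, with 15362, 13682 and 14604 in the mHTT libraries and 14509.8, 14128 and 14354 in controls and a change of 0.02 (adjusted p = 0.927). The astrocyte gene alrm, which encodes a leucine-rich repeat protein, fell by 1.0 (SE 0.14, adjusted p = 0.000133), from 2349, 2097 and 2326 to 1094, 1087 and 1192. Obp44a, a lipid-binding protein of the odorant-binding family, fell by 2.15 (SE 0.23, adjusted p = 8.03e-06), from 11550.1, 9578 and 10594 to 2305, 2130.0 and 2718, and the fatty acid binding protein fabp fell by 0.74 (adjusted p = 0.0016). The gap-junction proteins Inx2 and ogre were lower as well, with changes of -0.74 and -0.54 (adjusted p = 0.000461 and 4.06e-05), and so was the FGF receptor htl, with -0.63 (adjusted p = 0.000824).

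**Figure D1:**
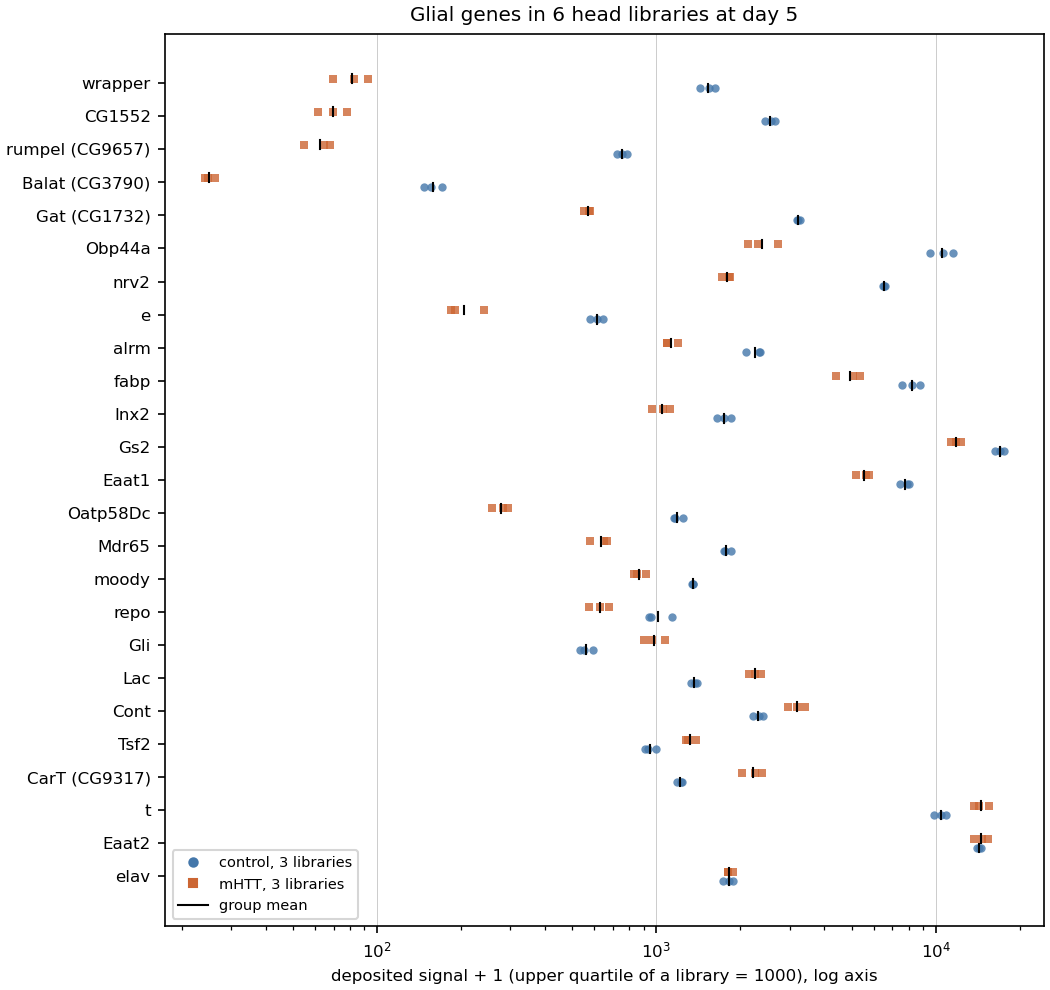
Deposited signal + 1 (log axis) of glial genes and elav in each of the 3 control (circles) and 3 mHTT (squares) libraries at day 5, with group means as black bars. The astrocyte, cortex and ensheathing genes in the upper rows lie lower with mHTT, from wrapper (change -4.24) to Eaat1 (-0.50), whereas Gli, Lac, Cont, Tsf2, CarT and t lie higher and the groups of Eaat2 and elav overlap.

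Genes of the histamine cycle of the visual system did not move together. Photoreceptors release histamine, glia take it up and couple it to beta-alanine with the enzyme ebony (e), and photoreceptors take the product carcinine back through CarT and split it with tan (t). Of the glial steps, e fell by 1.58 (SE 0.16, adjusted p = 3.34e-06), from 613, 575 and 641 to 241, 189 and 183, and the beta-alanine transporter Balat (CG3790) fell by 2.66 (SE 0.18, adjusted p = 5.28e-08), from 154, 146 and 170.2 to 25.2, 23.2 and 23.7. Of the photoreceptor steps, CarT (CG9317) rose by 0.87 (SE 0.08, adjusted p = 1.44e-06) and t rose by 0.48 (SE 0.10, adjusted p = 0.00345). The call of t was lost with all 72 libraries in the fit. The histamine-gated chloride channel ort of the neurons downstream was at 1183, 1199.5 and 1166 in the mHTT libraries and 597, 504 and 512 in controls, without overlap, and rose by 1.14 (SE 0.08, adjusted p = 7.56e-08). A further pair of genes was looked up after the values of the others had been seen. These were Hdc, which makes histamine, with a change of 0.14 (adjusted p = 0.283), and the solute carrier ine, which fell by 0.76 (adjusted p = 1.63e-05). Balat overlaps an antisense RNA.

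Barrier glia genes changed in both directions. Of 21 tested markers, 6 fell and 5 rose, with a median of 0.21. The falls include nrv2, which was also counted in the pan-glial list. Among the transporters of the barrier, the organic anion transporter Oatp58Dc fell by 2.10 (SE 0.13, adjusted p = 1.89e-08), from 1247, 1153 and 1165 to 256, 292 and 280.4, and the ABC efflux pump Mdr65 fell by 1.50 (SE 0.10, adjusted p = 3.16e-08), from 1757, 1845 and 1742 to 648, 579.5 and 664. nrv2, a beta subunit of the sodium-potassium ATPase that is widely used as a glial marker, fell by 1.86 (SE 0.09, adjusted p = 7.31e-10), and moody, the receptor that controls barrier tightness, fell by 0.64 (adjusted p = 1.10e-05). The nrv2 protein is also part of the septate junctions, which seal the barrier, so junction genes did not all move 1 way. Several other components of these junctions rose. Gliotactin (Gli) was at 966, 904 and 1069.9 in the mHTT libraries and 530.1, 549.6 and 592 in controls and rose by 0.81 (SE 0.15, adjusted p = 0.00146). Lachesin (Lac) rose by 0.73 (adjusted p = 2.04e-06), Contactin (Cont) by 0.46 (adjusted p = 0.00821) and Transferrin 2 (Tsf2) by 0.48 (adjusted p = 0.000107), each without overlap. The junction genes cora, vari, kune, Nrx-IV and sinu were not called, with changes from -0.17 to 0.22. The monoamine transporter Vmat fell by 0.43 (adjusted p = 0.0169), a call lost without mHTT library 1 or control library 2 and with the most frequent label prefix alone. The trehalose transporter Tret1-1 fell by 0.38 (adjusted p = 0.0227), lost without mHTT library 1 or 3 or control library 1, 2 or 3 and with the most frequent label prefix alone. The call of a further junction gene, pck (change 0.35, adjusted p = 0.0495), was lost in 20 of the 29 settings, among them each that left out 1 of the 6 day 5 libraries. Septate junctions are also made by epithelia, and which cells of the head gave these transcripts was not tested. moody, Vmat and Tret1-1 overlap antisense genes.

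Glial genes for engulfment were not uniformly lower. The phagocytic receptor drpr was at 4020.0, 4073 and 3653 in the mHTT libraries and 4135, 3883 and 3902 in controls, with a change of -0.02 (adjusted p = 0.92). Its adaptor ced-6 fell by 0.61 (SE 0.09, adjusted p = 0.000185), from 5606, 5695 and 6036 to 3358, 4038 and 3972. Of 21 engulfment and scavenger genes tested, 5 fell and 2 rose. Without mHTT library 3, and likewise without control library 1, 2 fell and 1 rose.

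Neuronal transcripts gave no such change. None of 16 tested neuronal markers was called in limma (3 had an unadjusted p under 0.05), with changes from -0.35 to 0.30 and a median of -0.01, and their mean log2 level was 11.44 to 11.61 in mHTT and 11.49 to 11.58 in control libraries. Some alternatives called a few of these markers, 1 higher and 1 lower without mHTT library 1 of day 7, 1 lower without mHTT library 2 of day 8, with median-ratio rescaling or with the replicate block, and 2 higher and 1 lower from the 6 day 5 libraries alone. Among 31 genes of synaptic vesicle release 2 rose and 1 fell, among 32 synaptic adhesion and scaffold genes 3 rose and none fell (none was lower at an unadjusted p under 0.05), and among 36 receptor genes 3 rose and 1 fell. The shares that rose were near the 7.08% called higher among all genes, so these counts do not set the lists apart. They became 1, 1 and 2 higher and none lower without mHTT library 1 or control library 2, and the adhesion count was 1 without mHTT library 3 or control library 1 as well. Of the genes called, Fasciclin 3 (Fas3) rose by 0.66 (adjusted p = 7.17e-05), and the proton pump subunit Vha100-1, needed for synaptic vesicles, rose by 0.30 (adjusted p = 0.00189), a call lost with all 72 libraries in the fit. The adhesion molecule Fas2 rose by 0.66 (adjusted p = 0.0174), lost without mHTT library 1 or 3 or control library 1 or 2 and with all 72 libraries in the fit. The GABA-receptor-like subunit Grd rose by 1.15 (SE 0.13, adjusted p = 1.94e-05), a call lost with all 72 libraries in the fit. Of the receptor genes, ort and Oamb also rose (the latter by 0.25, adjusted p = 0.0401, lost in 11 of the 29 settings), and the dopamine receptor gene DopR fell by 0.54 (adjusted p = 0.0111), a call lost without mHTT library 1 or control library 2 and with all 72 libraries in the fit.

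Neuropeptide precursors changed in both directions. Of 34 tested, 6 rose and 3 fell, with a median of -0.05, against 7.08% higher and 6.42% lower among all genes. Nplp3 was at 4043, 5504 and 5779 in the mHTT libraries and 2074, 1769 and 2247 in controls, without overlap, and rose by 1.32 (SE 0.21, adjusted p = 0.000469). SIFamide (IFa) rose by 1.09 (SE 0.17, adjusted p = 0.000391), from 174, 140.1 and 141 to 339, 306 and 324, and FMRFamide (Fmrf) rose by 0.79 (SE 0.12, adjusted p = 0.000276), from 223, 228 and 231 to 371, 368 and 452. Nplp4 fell by 1.34 (SE 0.39, adjusted p = 0.032), from 127, 119 and 111 to 44.4, 41.4 and 54.3, and Pdf and the insulin-like peptide gene Ilp2 fell by 0.44 and 0.38 (adjusted p = 0.0402 and 0.0282). Each of these 3 falls was lost in every setting that left out 1 of the 6 day 5 libraries, and in 8, 13 and 8 of the 29 settings in all. The rises of capa, Nplp1 and Ast, the other calls on this list, also depended on single libraries. Leaving out mHTT library 1 left 4 higher and none lower, mHTT library 3 left 3 and 1, control library 1 left 4 and none, and control library 2 or 3 left 3 and none. IFa overlaps an antisense gene.

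The 12 largest rises and the 12 largest falls were taken among called genes whose groups did not overlap, so their separation is part of the choice. They ran from 3.35 to 8.06 and from -3.65 to -6.02, and the scatter within groups differed widely between them. The non-coding RNA CR43264 (FBgn0262945) was at 3283, 4555 and 4130.1 in the mHTT libraries and 19.6, 9.10 and 14.8 in controls, and its change of 8.06 (SE 0.26, adjusted p = 8.48e-12) was the highest of all genes called. Dtg (CG6234, FBgn0038071), first described as a target of Dpp signalling, was at 2038, 1788 and 1957 in the mHTT libraries and 55.6, 53.2 and 54.9 in controls. The scatter of Dtg within each group was small, and it rose by 5.11 (SE 0.11, adjusted p = 5.51e-14). The lysozyme gene LysS was listed at 0 in 2 controls and at 132, 103 and 256 in the mHTT libraries, a change of 6.62 (SE 0.58, adjusted p = 8.31e-07). Similar lysozyme genes may share its reads. CG34456 rose by 4.72 (SE 0.21, adjusted p = 3.02e-10) and CG10814 by 4.43 (SE 0.73, adjusted p = 0.000637). Diedel (CG11501), a secreted immune-modulating peptide, rose by 4.33 (SE 0.98, adjusted p = 0.00677), but its mHTT values ran from 26.5 to 161. CG4500 and the non-coding CR40685 rose by 3.55 and 3.43 (adjusted p = 2.54e-05 and 3.71e-07). A pair of histone genes were also among the 12 largest rises, at 5.10 for His4:CG33909 and 3.68 for His2B:CG17949 (adjusted p = 0.00777 and 3.23e-05). Histone copies are nearly identical and reads between them could be split, and the first call was lost with a pseudocount of 0.1. CR43264 and CG34456 overlap genes on the other strand.

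Of the falling genes, CG33296 (FBgn0053296) was at 31.8, 44.1 and 26.5 in the mHTT libraries and 2248, 2315 and 2143 in controls and fell by 6.02 (SE 0.18, adjusted p = 6.31e-12). CG40470 (FBgn0058470) went from 2237, 2376 and 2287 in controls to 49.4, 29.5 and 41.1 and fell by 5.84 (SE 0.22, adjusted p = 3.59e-11). In both genes the controls ran from 2143 to 2376 and the mHTT libraries from 26.5 to 49.4. CG9377 was at or near 0 with mHTT, at 1.51, 0 and 0.457 against 111, 114 and 75.2, and MFS9 (CG4288), a solute carrier of the major facilitator family, fell by 5.64 (adjusted p = 7.51e-11). CG1545 fell by 5.42 (SE 0.25, adjusted p = 5.09e-10), from 772, 683 and 655 to 18.2, 17.7 and 11.4. It lies next to CG1552, the glial gene above, in the Release 6 annotation of the X chromosome. Csas, the CMP-sialic acid synthase, fell by 4.61 (adjusted p = 7.12e-10), from 1076, 1037 and 984 to 47.9, 30.5 and 48.4. The change was -5.08 for CG12256 (adjusted p = 1.87e-07), -4.44 for the neprilysin-like Nepl5 (CG9507, adjusted p = 2.55e-09) and -4.02 for CG31706 (adjusted p = 1.14e-10). The eggshell gene dec-1 fell by 3.65 (adjusted p = 0.0134), a call lost without mHTT library 2 or control library 3. CG40470, CG12256, Csas, Nepl5 and dec-1 overlap genes on the other strand.

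**Figure D2:**
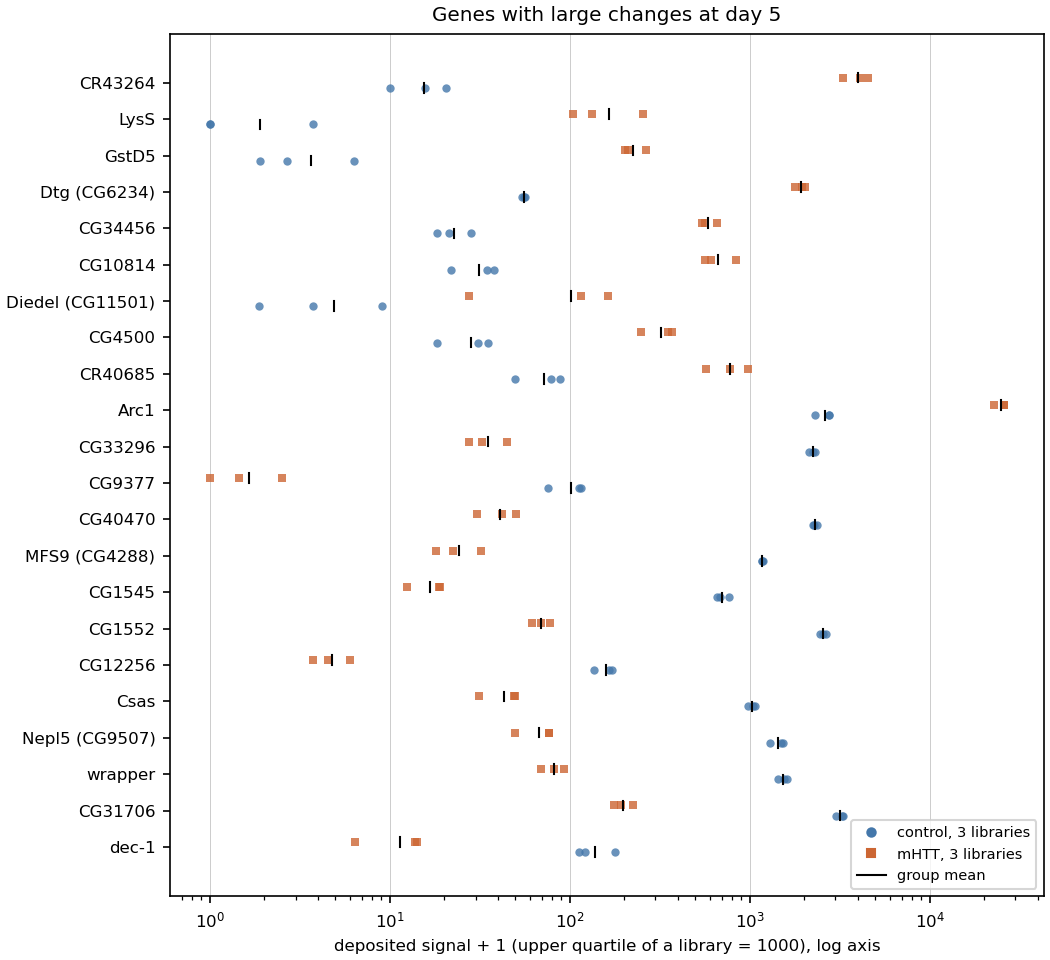
Deposited signal + 1 (log axis) of genes with large changes in each of the 3 control (circles) and 3 mHTT (squares) libraries at day 5, with group means as black bars. The rising genes are in the upper rows, down to Arc1, and the falling genes below, from CG33296 (-6.02) to dec-1 (-3.65), and for each gene the 2 groups are apart.

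Some genes of high signal, which also grows with transcript length, changed as well. Arc1, a capsid-forming protein that carries RNA between cells, was at 25924, 22851 and 25922 in the mHTT libraries and 2759, 2776 and 2322 in controls and rose by 3.25 (SE 0.13, adjusted p = 5.27e-11). vir-1, named as a virus-induced gene, rose by 0.88 (SE 0.12, adjusted p = 7.74e-05), from 14591, 15701 and 15426 to 27442, 29061 and 27794. The photoreceptor channel trpl rose by 0.67 (SE 0.09, adjusted p = 9.03e-05), from 38370.5, 39242 and 33589.9 to 58307, 58222 and 60118. The translation elongation factors Ef1alpha48D and Ef2b were lower, with changes of -0.92 and -0.56 (adjusted p = 0.000373 and 0.00345). Ef1alpha48D was at 113037, 135581 and 110751 in the mHTT libraries and 231902, 220166 and 223027 in controls. None of the 85 cytosolic ribosomal protein genes tested was called in limma (median 0.16), nor any of the 72 mitochondrial ribosomal protein genes (median 0.07). Unadjusted, none of the former and 1 of the latter had p under 0.05. Without mHTT library 1 of day 7, 6 of the former were higher and 1 lower, and 5 of the latter were higher. From the 6 day 5 libraries alone, 22 of the former were higher and 3 lower, and 6 of the latter were higher. Quantile normalisation called 3 of the former higher. trpl overlaps an antisense gene.

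Glutathione S-transferases, which conjugate glutathione to electrophiles, were mostly higher. Of 9 delta-class genes tested, 6 rose and 1 fell (median 0.71), and of 10 epsilon-class genes 6 rose and 1 fell (median 0.60), against 7.08% higher among all genes. GstD5 (FBgn0010041) was at 201, 209 and 266 in the mHTT libraries and 5.34, 0.910 and 1.69 in controls and rose by 6.14 (SE 0.46, adjusted p = 1.33e-07). GstD2 rose by 2.77 (SE 0.22, adjusted p = 2.10e-07), from 34.3, 26.4 and 34.6 to 205, 244 and 217. GstD1 rose by 0.58 (SE 0.13, adjusted p = 0.00732), from 4845, 4889 and 5003 to 7219, 7081 and 7782, and the 2 groups were apart in all 3 genes. In the epsilon class GstE1, GstE3 and GstE6 rose by 0.88, 0.98 and 0.64 (adjusted p = 0.000213, 0.0015 and 0.00296). GstD9, the single delta-class gene that was lower, fell by 0.53 (adjusted p = 0.0265), a call lost without mHTT library 1 or 2 or control library 1, 2 or 3, with the most frequent label prefix alone and with all 72 libraries in the fit. Members of each class are similar and lie in clusters, so reads could be split between them, and GstE1 overlaps its antisense neighbour GstE10.

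Other redox genes were mixed. Of 22 antioxidant genes, 4 rose and 2 fell, against 7.08% higher and 6.42% lower among all genes. Without mHTT library 1 of day 7 these counts were 7 and 4. The peroxiredoxin Prx2 (Jafrac1) rose by 0.77 (SE 0.14, adjusted p = 0.00114), from 3923, 3774 and 3786 to 6193, 7103 and 6347, and the glutathione peroxidase PHGPx by 0.59 (adjusted p = 0.00457). Thioredoxin reductase (Trxr-1) rose by 0.60 (adjusted p = 0.0171), a call lost without mHTT library 1 or control library 2 or 3. The secreted superoxide dismutase Sod3 (CG9027) fell by 1.45 (SE 0.11, adjusted p = 1.61e-07), from 1417, 1358 and 1346 to 470.2, 482 and 555. cnc, which encodes the Nrf2-type activator of such genes, was at 2902, 3403 and 3714 in the mHTT libraries and 3251, 4019.6 and 4186 in controls, with overlapping groups and a change of -0.19 (adjusted p = 0.486). Cytochrome P450 genes were more often lower, with 17 of 77 tested lower and 6 higher (median -0.26). Cyp28c1 fell by 2.46 (SE 0.24, adjusted p = 2.28e-06) and Cyp4ac3 fell by 1.95 (SE 0.11, adjusted p = 3.19e-09), while Cyp6a20 rose by 0.84 (SE 0.08, adjusted p = 1.03e-06). Trxr-1, PHGPx and Cyp4ac3 overlap antisense genes.

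Several chaperones of the cytosol and of the endoplasmic reticulum were higher. Of 21 heat shock chaperones, 8 rose and none fell (median 0.62). That count was 5 without mHTT library 1 or 3 or control library 1 or 2. Hsp70Ab was at 1978, 1564 and 2284 in the mHTT libraries and 347, 249 and 261 in controls and rose by 2.76 (SE 0.51, adjusted p = 0.0015). Hsp68 rose by 1.68 (SE 0.38, adjusted p = 0.0065), from 325, 309 and 294 to 951, 908 and 1129. The Hsp70 copies are nearly identical and may share reads. Hsp70Bb rose by 2.09 (adjusted p = 0.00178), a call lost with all 72 libraries in the fit. The cytosolic Hsp90, Hsp83, rose by 0.57 (adjusted p = 0.0248), lost without mHTT library 2 or 3 or control library 1 or 3 and with the most frequent label prefix alone, and the mitochondrial Hsp22 by 0.74 (adjusted p = 0.0285), lost without mHTT library 1, 2 or 3 or control library 1 or 2, with the replicate block, with the most frequent label prefix alone and with all 72 libraries in the fit.

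Of 20 genes of the unfolded protein response of the endoplasmic reticulum, 7 rose and none fell (median 0.21). The BiP chaperone Hsc70-3 was at 12489.5, 12206 and 12869 in the mHTT libraries and 7366, 7503 and 7991 in controls, without overlap, and rose by 0.72 (SE 0.08, adjusted p = 2.41e-05). The disulphide isomerase CaBP1 rose by 0.91 (SE 0.12, adjusted p = 0.000106), from 1008, 1009 and 1002 to 1892, 1861 and 1913, and the Hsp90 of this compartment, Gp93, rose by 0.67 (SE 0.14, adjusted p = 0.00474). Of 29 proteasome subunit genes, 6 rose and the change was above 0 in each of the 29 (median 0.36, against 0.06 for all genes). The proteasome count depended on the libraries, and from the 6 day 5 libraries alone 27 rose. The count was 24 without mHTT library 1 of day 7, 13 without mHTT library 2 of day 7, and 3, 1 and 2 without mHTT libraries 1, 2 and 3 of day 5 and 1, 2 and 2 without control libraries 1, 2 and 3. The base subunit Rpn2 rose by 0.31 (SE 0.07, adjusted p = 0.0064), from 1959, 1929 and 1980.2 to 2397, 2495 and 2377. Autophagy genes were mostly not called, with 1 of 21 higher and 2 lower, against 7.08% and 6.42% of all genes. That riser was ref(2)P, the fly p62, at 8263, 8124 and 7287 in the mHTT libraries and 6385, 6297 and 6438 in controls, which rose by 0.31 (SE 0.07, adjusted p = 0.00528), a call lost with all 72 libraries in the fit, and Atg2 fell by 0.50 (adjusted p = 0.00226). Hsp70Ab, Hsp68, Hsp83, Gp93 and ref(2)P overlap antisense genes.

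Cytokines of the JAK/STAT pathway were higher, and so were several JNK-linked genes. Of 15 tested JAK/STAT and Turandot genes 9 rose and 1 fell (median 0.48), and without any 1 of mHTT libraries 1 and 2 or control libraries 1, 2 and 3 only 5 rose. upd3 (FBgn0053542), a cytokine that binds the receptor dome, was at 37.8, 35 and 36.5 in the mHTT libraries and 6.23, 4.55 and 2.96 in controls, without overlap, and rose by 2.79 (SE 0.48, adjusted p = 0.000975). The related upd2 rose by 2.42 (SE 0.39, adjusted p = 0.000498), from 1.34, 2.73 and 2.96 to 17.7, 17.3 and 14.6. The receptor dome rose by 0.51 (adjusted p = 0.00911), a call lost without mHTT library 1 and with the most frequent label prefix alone, and the feedback inhibitor Socs36E rose by 0.39 (adjusted p = 0.00406), lost with all 72 libraries in the fit. The Turandot genes encode secreted stress peptides and varied widely between mHTT libraries. TotA was at 5447, 9919 and 2912 in the mHTT libraries and 590.1, 981 and 925 in controls, with no overlap but a spread of more than 3-fold among the mHTT libraries. It rose by 2.73 (SE 0.77, adjusted p = 0.0275), and this was lost without mHTT library 1 or 2 or control library 1, 2 or 3 and with the most frequent label prefix alone. TotC rose by 3.35 (adjusted p = 0.0467) and TotM by 3.05 (adjusted p = 0.0472). Their calls were lost in 14 and 15 of the 29 settings, among them the omission of any day 5 library other than mHTT library 3. Turandot genes resemble each other and may share reads.

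Of 27 genes of JNK signalling and cell death, 9 rose and 1 fell (median 0.19), with 5 and 1 without control library 2 and 4 and 1 without control library 3. Ets21C (FBgn0005660), an ETS-family transcription factor induced by JNK, was at 158, 120.5 and 145 in the mHTT libraries and 40.9, 31.8 and 36.7 in controls and rose by 1.92 (SE 0.14, adjusted p = 9.77e-08). The matrix metalloproteinase Mmp1 rose by 1.03 (SE 0.10, adjusted p = 2.01e-06), from 813, 866 and 791 to 1649, 1592 and 1795, and these groups too were apart. Xrp1 and its bZIP partner Irbp18 (CG6272) rose by 0.42 and 0.70 (adjusted p = 8.84e-05 and 5.82e-05), and the call of Xrp1 was lost with all 72 libraries in the fit. The JNK phosphatase puc, a classical target of the pathway, was called at 0.27 (adjusted p = 0.0431), but this was lost in 14 settings, among them each that left out 1 of the 6 day 5 libraries. The ligand egr, the fly tumour necrosis factor, fell by 0.81 (SE 0.11, adjusted p = 9.28e-05), from 713, 700.2 and 704.4 to 415, 400.0 and 395. Ets21C, Mmp1, Irbp18 and egr overlap genes on the other strand, and for egr these are small nucleolar RNAs.

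**Figure D3:**
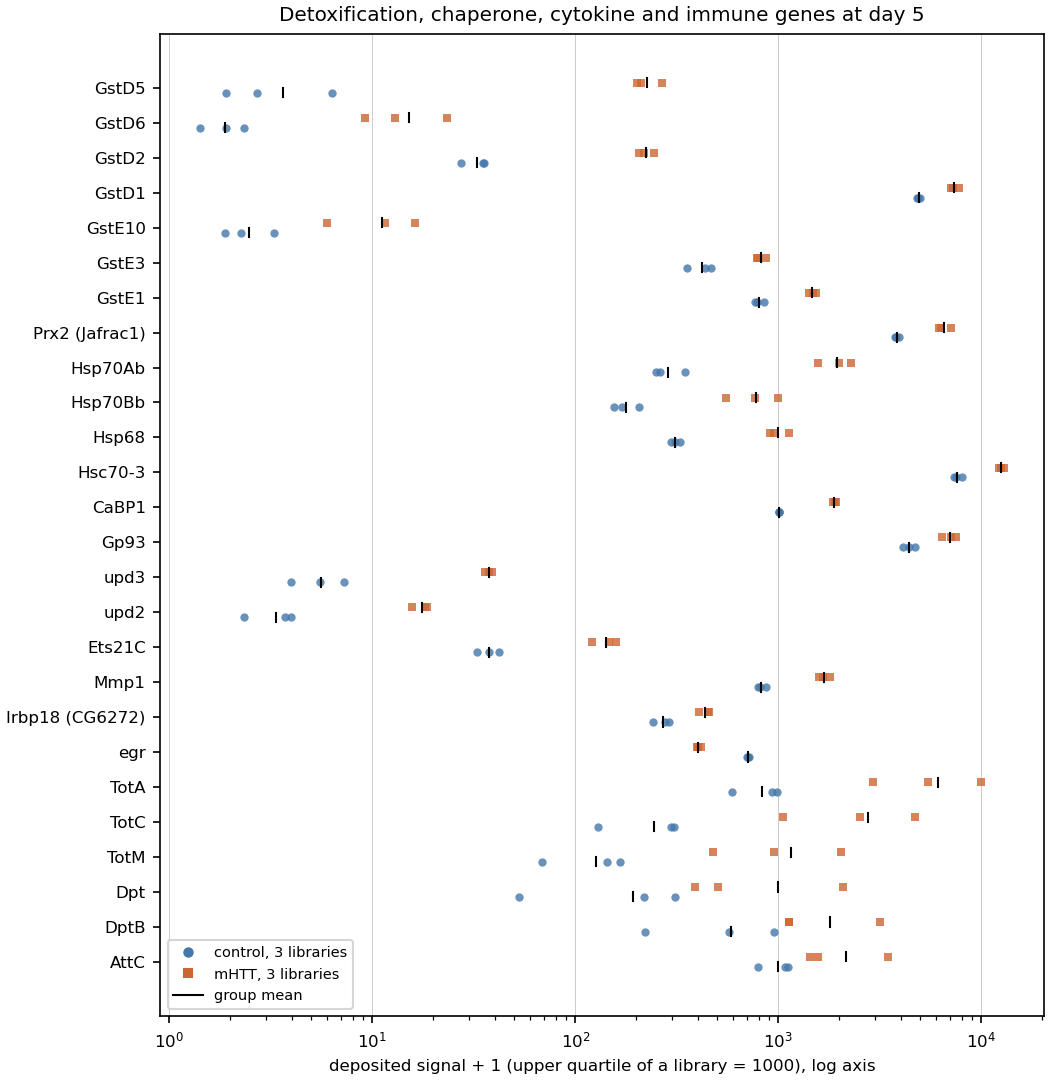
Deposited signal + 1 (log axis) of detoxification, chaperone, cytokine, JNK-linked and immune genes in each of the 3 control (circles) and 3 mHTT (squares) libraries at day 5, with group means as black bars. GstD5, Hsp70Ab, upd3 and Ets21C lie clearly higher with mHTT and egr lower, and the mHTT values of TotA, TotC, TotM and Dpt are spread over a wide range.

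Antimicrobial peptide genes were not called. None of 13 peptides of the Imd type and none of 14 of the Toll type passed in limma with the 18 libraries, although their medians were 1.24 and 0.48 and all 14 of the latter had a change above 0. At an unadjusted p under 0.05, 4 of the Imd type were higher and 2 lower, and 2 of the Toll type were higher. Diptericin (Dpt) was at 389, 2089 and 502 in the mHTT libraries and 52.1, 216 and 307 in controls, with a change of 2.28 (SE 0.95, adjusted p = 0.137). AttC was at 1564, 3482 and 1424 in the mHTT libraries and 790.4, 1080.4 and 1117 in controls, with a change of 1.01 (SE 0.55, adjusted p = 0.274). mHTT library 2 was the highest of its group for both, and by several fold for Dpt. From the 6 day 5 libraries alone, 3 of the Imd-type peptides were called higher and 1 lower, and without mHTT library 3 of day 7 1 was called lower. Of the Toll type, 8 were called higher and none lower from the 6 day 5 libraries alone. In the fit of more libraries, 1 was called higher without mHTT library 1 or 3 of day 7 or with the replicate block. Upstream of these peptides, 2 of 18 genes of peptidoglycan recognition and the Imd pathway rose and none fell (1 was lower at an unadjusted p under 0.05), and of 16 Toll pathway genes 1 rose and 2 fell. Among all genes 7.08% were called higher and 6.42% lower. The first list had 1 riser without mHTT library 1 or control library 3. The Toll pathway had no gene lower without mHTT library 1 or 3 or control library 2 or 3, and 2 higher and 4 lower without mHTT library 1 of day 7. The peptidoglycan sensor PGRP-SA rose by 1.03 (SE 0.23, adjusted p = 0.00682), from 316, 390.4 and 381 to 801, 879 and 567, and the Toll ligand spz rose by 0.64 (SE 0.09, adjusted p = 0.000121), from 663, 764 and 797 to 1055, 1118 and 1285. The groups were apart for both genes. Tak1, a kinase of the Imd pathway, rose by 0.26 (adjusted p = 0.0128), a call lost without mHTT library 1 or control library 3, with median-ratio rescaling and with the most frequent label prefix alone. The Toll adaptor gene Myd88 and GNBP2 fell by 0.30 and 0.36 (adjusted p = 0.0361 and 0.0445), and these calls were lost in 8 and 16 of the 29 settings. AttC and spz overlap antisense genes.

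Sugar metabolism genes changed in both directions. Of 21 tested, 2 rose and 4 fell, against 7.08% higher and 6.42% lower among all genes. The median of 0.05 was -0.0044 with median-ratio rescaling. Pepck, the first committed enzyme of gluconeogenesis, was at 3176, 4831 and 7191 in the mHTT libraries and 1446, 1076 and 1119 in controls and rose by 1.99 (SE 0.34, adjusted p = 0.000813). Lactate dehydrogenase (ImpL3) rose by 1.65 (SE 0.23, adjusted p = 0.000126), from 154, 156 and 153 to 455, 497 and 511. Treh, which splits the blood sugar trehalose and is needed in glia for glycolysis, fell by 0.97 (SE 0.08, adjusted p = 2.60e-07), from 9161, 9401 and 9261 to 4655, 4636 and 4886. Phosphoglucomutase (Pgm) fell by 1.07 (SE 0.23, adjusted p = 0.00565), with mHTT values of 10792, 13134 and 7863 that stayed below each control. The trehalose synthase Tps1 fell by 0.81 (adjusted p = 0.0399), and its mHTT values ran from 26005 to 48356. That call was lost without mHTT library 1 or 3 or control library 1, 2 or 3, without 2 of the later libraries, one at a time, with no filter on low values and with the most frequent label prefix alone. Of 14 insulin pathway genes, 3 fell and 1 rose. The decoy receptor Sdr (CG3837) fell by 1.60 (SE 0.16, adjusted p = 3.96e-06), from 458, 435 and 460.3 to 158, 142 and 145, and the insulin-binding protein ImpL2 rose by 0.81 (SE 0.14, adjusted p = 0.000839), from 456, 515 and 495 to 821, 805 and 959.8. The other 2 calls of this list were lost without any 1 of mHTT libraries 1 and 2 or control libraries 1, 2 and 3. In the respiratory chain 1 of 34 genes was called. Treh, Pgm and Tps1 overlap antisense genes.

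Laminins and perlecan of the basement membrane, the matrix sheet that also covers the brain, were higher. Of 13 tested, 4 rose and none fell (median 0.30). LanB2 was at 2366, 2142 and 2097 in the mHTT libraries and 1011, 1027 and 1005 in controls, with no overlap, and rose by 1.12 (SE 0.11, adjusted p = 2.04e-06). LanB1 and LanA rose by 0.64 and 0.51 (adjusted p = 0.00022 and 0.00113). The perlecan gene trol rose by 0.49 (adjusted p = 0.0146), which was lost without mHTT library 1 or 3 or control library 1 and with median-ratio rescaling.

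Markers of other tissues in the head were compared between the groups, since whole heads were collected. The mean log2 level of photoreceptor and phototransduction genes was 13.92 to 14.01 with mHTT and 13.78 to 13.87 in controls. Of 31 tested, 2 rose and 1 fell, against 7.08% higher and 6.42% lower among all genes. Without mHTT library 1 of day 7 these counts were 9 and 1. Muscle genes were at 10.49 to 11.05 against 10.48 to 10.66, hemocyte genes at 10.12 to 10.30 against 10.20 to 10.35, and genes of gut and digestive enzymes at 3.18 to 4.94 against 4.19 to 4.39, all overlapping. Fat body genes were at 11.57 to 11.72 against 11.23 to 11.34, higher with mHTT on average, but their members diverged, with 3 of 14 tested higher and 2 lower. Without mHTT library 1 these were 2 and 1, and without control library 2 they were 1 and 1. The predicted lipase CG5966 rose by 2.70 (SE 0.57, adjusted p = 0.0042), from 149, 157 and 177 to 655, 1133 and 1539, while the yolk protein gene Yp2 fell by 1.17 (adjusted p = 0.0139), a call lost without mHTT library 1 or control library 2 and with the most frequent label prefix alone. Yp1 and Yp3 had changes of -0.48 and -0.45 (adjusted p = 0.233 and 0.406) and were called lower when the 6 day 5 libraries were fitted alone. Reads may be split between the similar yolk genes. Whether a different share of fat body had a part in the changes of Pepck, Tps1 and the Turandot genes was not tested.

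**Figure D4:**
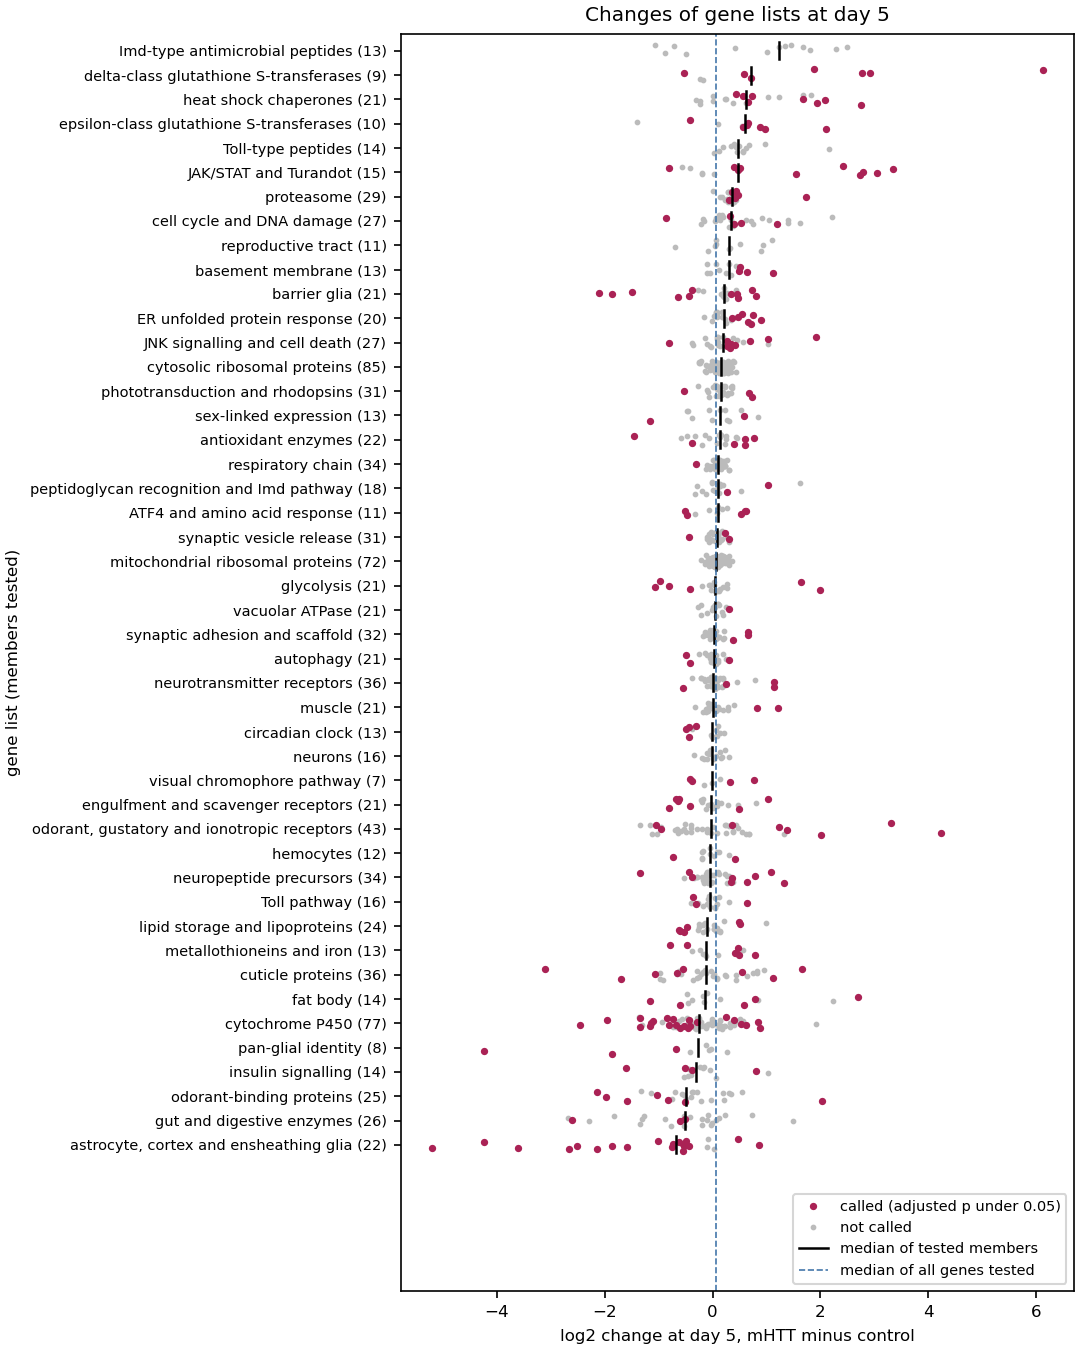
Log2 change at day 5 (mHTT minus control) of the tested members of each gene list with at least 7 tested members, sorted by list median, with called genes in red, other genes in grey, list medians as black bars and the median of all genes tested as a dashed line at 0.06. The astrocyte, cortex and ensheathing glia list, which also holds the histamine-cycle genes, has the lowest median (-0.68), and the Imd-type peptides have the highest (1.24) although none of them was called.

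The day 5 changes were set beside those at days 7 and 8, measured in separate libraries of the same genotypes. At day 7, 1841 genes (17.8%) were called, 11.2% higher and 6.56% lower, and at day 8, 1087 (10.5%), 5.57% higher and 4.92% lower. Of the 1398 genes called at day 5, 918 (65.7%) were called in the same direction at day 7, 676 (48.4%) at day 8 and 598 at both. 1 gene was called in the opposite direction at day 7 and 7 at day 8, and 396 (28.3%) were called at neither later age. The sign was the same at both later ages for 1287 (92.1%), and this share was not counted over all genes tested. Across the 10358 genes, which are not independent, the changes correlated at r = 0.738 between days 5 and 7 and r = 0.701 between days 5 and 8. Of the 22 genes of the glial list, 15 were lower and 3 higher at day 7 and again at day 8, against 17 and 2 at day 5, and 14 were called lower at all 3 ages. wrapper changed by -4.24, -3.54 and -4.61 at days 5, 7 and 8, CG1552 by -5.21, -5.07 and -4.97, and repo by -0.69, -0.61 and -0.86. Each of these was called. drpr, not called at day 5, changed by -0.25 at day 7 and -0.11 at day 8 (adjusted p = 0.0394 and 0.521), and loco by 0.04 and -0.35 (adjusted p = 0.834 and 0.0253).

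A test of the day 5 change against the mean of the later changes called 7 genes (0.0676% of those tested), while 690 had an unadjusted p under 0.05. Without mHTT library 1 of day 7 the count was 141, and without mHTT library 3 or control library 1 of day 5 it was 0. For other genes a called change at day 5 that was not called later is therefore not shown to differ between ages. Ets21C was 1 of the 7, with changes of 1.92, 1.21 and 0.24 at days 5, 7 and 8, and Gat another, with -2.51, -1.66 and -1.44. Values of upd3 (2.79, 0.81 and 0.95), Hsc70-3 (0.72, 0.15 and 0.36) and Pepck (1.99, 1.34 and -0.10) were also highest at day 5, but the difference from later ages was not called (adjusted p = 0.321, 0.121 and 0.308). Hsp70Ab had changes of 2.76, 0.81 and 4.97, lowest at day 7.

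**Figure D5:**
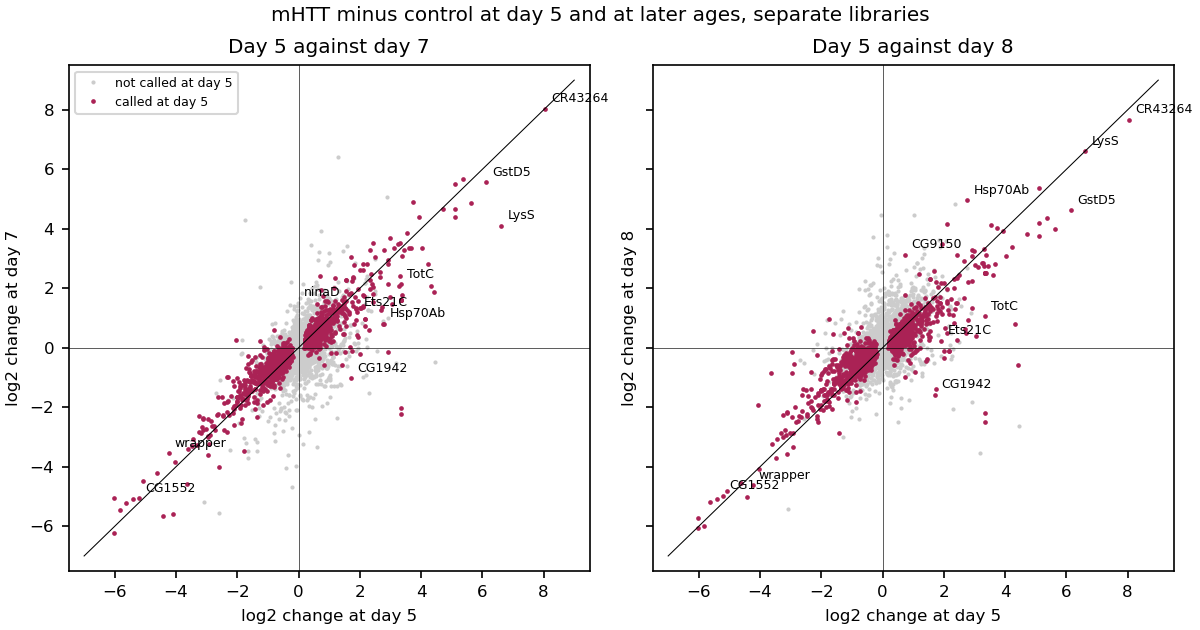
Log2 change (mHTT minus control) at day 5 on the horizontal axis against day 7 (left) and day 8 (right), each point 1 of 10358 genes, with genes called at day 5 in red and the line of equal change in black. Of the called genes 92.1% have the same sign at both later ages, a share not counted over all genes, while TotC and Ets21C lie below the line at day 8 and CG1942 changes sign.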

How the data were processed

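The deposited table gives a normalised signal for 13557 genes in each library. Per the submitters' processing notes, which give no role or order, the authors used CASAVA 1.8.2, Bowtie 0.12.0, RSEM 1.1.19 and DESeq2 with the dm3 genome build. The file name marks the signal as normalised RSEM estimates, and the authors' scaling set the upper quartile of every library to 1000. Of the low values, 92.3% to 93.1% were within 0.02 of a whole multiple of the smallest step, and the rest were not whole reads. Since the values were a normalised signal, no count test was used, and depth was estimated from that step. No coordinates are given, because the reference at hand is of another build and served for names, neighbours and antisense overlaps only.

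Values were analysed as log2(value + 1), which understates changes of low genes, with limma 3.58.1 in R 4.3.3 (lmFit and eBayes with a mean-variance trend). Testing was limited to genes that reached 10 in 3 or more of the 18 libraries (days 5, 7 and 8), 6 group means were fitted, and adjusted p under 0.05 made a call. All adjusted p-values for genes are two-sided and come from this fit. On simulated data with 10244 genes, the day 5 contrast recovered 46%, 82%, 96% and 98% of genes changed by 0.5, 1, 2 and 3, and 4.17% of its calls were false. The simulated noise was independent between genes, had the same spread in all libraries, and 50 genes were changed by each amount. In the data the mHTT libraries of day 5 scattered more than the controls, so these rates need not hold for the calls above.

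The groups, gene lists and naming rule were chosen with earlier results of these data known. The rule took the checks repo, elav, w, Yp1, Yp2, Yp3, roX1 and roX2 (w, roX1 and roX2 were not called, with changes of -0.14, 0.24 and 0.53), the 12 largest rises and falls among called genes without overlap and with a mean of at least 100, called members of 47 lists, the largest differences between ages and the 4 called genes of the highest signal in each direction. roX1 was called when the 6 day 5 libraries were fitted alone. Alternatives were other pseudocounts, filters, scalings, sets of libraries, a replicate block and the label prefix. Replicate numbers were not used to pair the libraries in the main fit, since the labels do not say what they mark.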

Additional observations from a re-analysis of the deposited data

Results flagged for a closer look

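In 7 genes the mHTT minus control change at day 5 differed from the mean change at days 7 and 8 by the limma test of that difference. Of these, 2 had a higher change at day 5. CG1942 changed by 1.71 at day 5, -1.01 at day 7 and -1.58 at day 8, a difference of 3.01 (SE 0.45, adjusted p = 0.0216), with day 5 values of 53.5, 57.3 and 49.8 in the mHTT libraries and 13.4, 20.9 and 13.5 in controls. Ets21C, the JNK-induced transcription factor, differed by 1.195 (SE 0.17, adjusted p = 0.0212).

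The other 5 had a lower change at day 5. The GABA transporter Gat (CG1732) had a larger fall at day 5 than later, a difference of -0.96 (SE 0.16, adjusted p = 0.0299). CG13283 fell by 0.69 at day 5 and changed by 0.05 and 0.68 later, a difference of -1.06 (SE 0.14, adjusted p = 0.0196). CG9150 changed by 0.73 at day 5, a call lost in 17 of 29 settings, and by 1.94 and 3.13 later, a difference of -1.81 (SE 0.28, adjusted p = 0.0246). ninaD, a scavenger receptor that takes up carotenoids, changed by -0.02 at day 5 and by 1.52 and 1.15 later, a difference of -1.35 (SE 0.22, adjusted p = 0.0299). The ubiquitin protease gene Ubpy changed by 0.06 at day 5 and by 0.75 and 0.28 later, a difference of -0.45 (SE 0.07, adjusted p = 0.0299). Each of the 7 calls was lost in at least 5 and at most 15 of the alternative settings, among them leaving out mHTT library 3 or control library 1 of day 5.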

How the results depend on the processing

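The 1398 calls at day 5 became 2737 (1683 higher) from the 6 day 5 libraries alone and 928 with the most frequent label prefix alone. Leaving out 1 library of the 18 gave 902 to 2381. The 7 differences from later ages became 12 with quantile normalisation, 11 with the label prefix as a covariate, 1 with the most frequent prefix alone and 11 with all 72 libraries, and leaving out 1 library gave 0 to 141. Where 1 library was left out, its group of 2 was assumed to vary like the others. The causes were not tested.

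With the replicate number as a block, 1435 genes were called at day 5, of which 1252 shared gene and direction with the 1398, and 6 differences from later ages. For the day 5 pairs of same-numbered mHTT and control libraries, deviations from the own group mean were correlated, not the values themselves. These correlations were 0.0535, -0.0540 and 0.0998, so the number was not taken as a pairing. The other settings run kept both counts within 1.5 times. The differences from later ages could not be fitted from the 6 day 5 libraries alone. With median-ratio rescaling 42.9% of calls were higher, against 52.4%. Over 248 named genes and list members, 6451 of 7154 combinations of gene and setting kept direction and call, 700 lost the call, 3 gained it and none changed direction, and 133 of 242 called genes were called in every setting. Limits are 3 libraries per group, pooled heads, an unknown use of strand and controls without an insertion in place of the fragment.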

Other observations

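Of 27 cell cycle and DNA damage genes tested, 4 rose and 1 fell, with a median of 0.35, against 7.08% higher and 6.42% lower among all genes. The genes called are all named here. Ku80 was at 493, 445 and 382 in the mHTT libraries and 202, 183 and 189 in controls, without overlap, and rose by 1.19 (SE 0.11, adjusted p = 1.91e-06). Its partner in binding DNA ends, Ku70 (Irbp), rose by 0.53 (SE 0.11, adjusted p = 0.00501), from 211, 237 and 217 to 323, 361 and 279.9. The nuclease gene mre11 fell by 0.87 (SE 0.12, adjusted p = 0.000112), from 555, 544 and 549 to 311, 320.4 and 272, and overlaps an antisense gene. RpA-70, a subunit of the single-strand binding protein RPA, rose by 0.40 (adjusted p = 0.00462), a call lost with all 72 libraries in the fit, and p53 rose by 0.32 (adjusted p = 0.0205), a call lost in 8 of the 29 settings. p53 overlaps Gr94a on the other strand.

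Odorant-binding protein genes were more often lower, with 6 of 25 tested lower and 1 higher (median -0.49). Obp56h fell by 1.98 (SE 0.28, adjusted p = 0.00013), from 1232, 1542 and 1542 to 256, 357 and 516, and Obp99a rose by 2.03 (SE 0.42, adjusted p = 0.00357), from 418, 503 and 586 to 1909, 1950.0 and 2279.9. Of 36 cuticle genes 3 rose and 5 fell, against 7.08% higher and 6.42% lower among all genes. The steepest fall among them was that of Cpr72Ec, which fell by 3.12 (SE 0.22, adjusted p = 5.31e-08), from 11971, 11211 and 9929.7 to 1815, 1230.5 and 911. Of 43 odorant, gustatory and ionotropic receptor genes 6 rose and 2 fell (median -0.02), and without mHTT library 2 or control library 2 these were 4 and none, and without control library 3 they were 5 and none. The riser with the largest change, the odorant receptor gene Or98a, listed at 0 in 2 controls, was at 30.8, 28.6 and 21 with mHTT and rose by 4.23 (SE 0.55, adjusted p = 7.37e-05). It overlaps a gene on the other strand. The ionotropic receptor gene Ir75a rose by 1.38 (adjusted p = 3.08e-06), while Gr33a and Ir11a fell by 1.05 and 0.96 (adjusted p = 0.0483 and 0.0394), calls lost in 15 and 11 of the 29 settings.

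Of 13 circadian clock genes, 4 fell (tim, Pdf, Pdp1 and vri) and none rose in limma (none was higher at an unadjusted p under 0.05), and the median was -0.0066. Of the 4, the call of tim held in each of the 29 settings. The number lower was 1 or 2 without any 1 of the 6 day 5 libraries, and 2 without mHTT library 1 of day 8 or control library 3 of day 7 or 8. per, Clk, cyc and cry were not called (changes from -0.0066 to 0.22). tim fell by 0.49 (SE 0.10, adjusted p = 0.00432), from 19728, 19798 and 17514 to 15708, 11815 and 13327, and was not called at day 7 or 8 (adjusted p = 0.971 and 0.186). vri, with -0.31 at day 5, was called higher at day 7 (0.29, adjusted p = 0.0236) and lower at day 8 (-0.43, adjusted p = 0.00218). Pdf changed by -0.06 and -0.49 (adjusted p = 0.8 and 0.0281) and Pdp1 by -0.01 and -0.35 (adjusted p = 0.966 and 0.142) at days 7 and 8. per was called higher at day 7 (0.56, adjusted p = 0.0121). The heads' time of collection was not used here, and tim overlaps an antisense RNA.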
